A study of Bos taurus with 47 samples.

Results

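ACTB (ENSBTAG00000026199) and GAPDH (ENSBTAG00000014731) are genes commonly used as references, against which the levels of other genes are read. They were taken by their cattle Ensembl identifiers and make up 2 of the 27607 identifiers counted in Longissimus muscle of beef cattle. Both were measured in all 47 libraries and both were tested in every comparison. The pairing of each symbol with its identifier came with the choice of genes. The gene table used here carries 0 Ensembl identifiers, so the pairing was not checked.

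The study asked whether the weight gain of a crossbred Angus heifer (F0) early in pregnancy leaves traces in the muscle RNA of her daughters and their fetuses. Heifers gained 0.28 kg/day (low gain, LG) or 0.79 kg/day (moderate gain, MG) over the first 84 days of gestation, and were kept as 1 herd afterwards. The F2 fetuses at day 84 gave 8 LG and 8 MG libraries from Longissimus dorsi. Newborn F1 heifers, sampled before suckling, gave 8 LG and 8 MG libraries from Longissimus thoracis. The F1 heifers at slaughter gave 8 LG and 7 MG libraries from the same muscle by the treatment labels, while the protocol text counts 7 LG and 8 MG. LG and MG name the gain of the F0 heifer in both generations. All libraries held polyA RNA of whole muscle.

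ACTB encodes beta-actin, a cytoplasmic actin of the cytoskeleton that most cell types make and that is distinct from the skeletal muscle actin of the sarcomere. GAPDH encodes glyceraldehyde-3-phosphate dehydrogenase, an enzyme of glycolysis, the pathway that breaks down glucose and that fast muscle fibres use heavily. A gene serves as a reference only over conditions in which its own level does not vary, since any change of it is passed to each gene read against it. Bovine muscle fibres form before birth and grow afterwards, so the 3 stages hold muscle of unlike maturity.

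The total count per library lay between 13308433 and 32547565. Levels are given as CPM, counts per 1000000 counts of a library size scaled by TMM, a method that brings the bulk of genes to a common level. The TMM factors were 1.19 to 1.93 in fetuses, 0.722 to 1.08 at birth and 0.731 to 0.938 at slaughter. The 10 most abundant genes held 9.23% to 13.9% of counts in fetuses, 17.3% to 26.8% at birth and 22.1% to 25.8% at slaughter. Fetuses differ from the F1 heifers in generation and in the named muscle as well as in age, and each stage came as a table of its own, so these cannot be told apart. In whole muscle, fewer cells of a type and less RNA per cell cannot be told apart either. Cell type markers were not analysed here, because the identifiers could not be paired with symbols.

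ACTB was highest in fetal muscle and about 3-fold lower in both F1 stages. In fetuses it had 878 CPM in MG 20, the lowest library, a median of 1466 CPM and 1983 CPM in MG 15, the highest. At birth it had between 397 CPM in LG 25 and 710 CPM in MG 21, with a median of 504 CPM. At slaughter it had between 348 CPM in MG 31 and 535 CPM in MG 32, with a median of 470 CPM. All 16 birth libraries and all 15 slaughter libraries lay below the lowest fetal library, while the birth and slaughter ranges overlapped. The stage means were 1476 ± 306 CPM in fetuses (SD, n = 16), 517 ± 92.4 CPM at birth (SD, n = 16) and 453 ± 55.9 CPM at slaughter (SD, n = 15). By read count, ACTB ranked between 34 and 64 among all genes of a fetal library, between 211 and 336 at birth and between 209 and 331 at slaughter.

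GAPDH moved the other way and was lowest in fetal muscle. In fetuses it had 1078 CPM in MG 20, a median of 1767 CPM and 2945 CPM in LG 41. At birth it had between 15759 CPM in MG 17 and 37836 CPM in MG 13, with a median of 25441 CPM. At slaughter it had between 12131 CPM in MG 39 and 23446 CPM in LG 11, with a median of 15915 CPM. Each F1 library lay above the highest fetal library, and 7 of the 15 slaughter libraries lay below the lowest birth library. The stage means were 1758 ± 420 CPM in fetuses (SD, n = 16), 25745 ± 5559 CPM at birth (SD, n = 16) and 17108 ± 3397 CPM at slaughter (SD, n = 15). GAPDH was the gene of rank 5 by read count in every birth library. It ranked between 5 and 10 at slaughter and between 31 and 44 in fetuses.

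**Figure D1:**
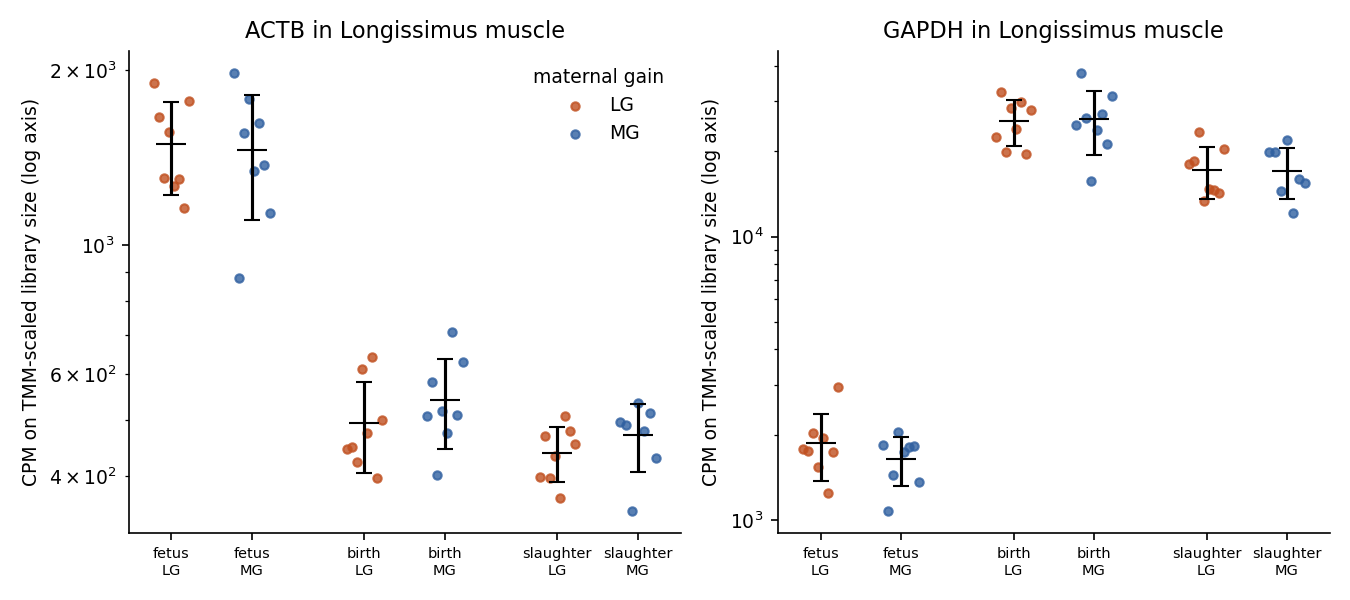
CPM of ACTB (left) and GAPDH (right) on TMM-scaled library sizes, on log axes, in fetuses, at birth and at slaughter, by maternal gain (LG, MG). Points are libraries, and bars are the mean ± SD of each group of 8 libraries (7 for slaughter MG). ACTB stands at 878 to 1983 CPM in fetuses and at 348 to 710 CPM afterwards, while GAPDH stands at 1078 to 2945 CPM in fetuses and at 12131 to 37836 CPM afterwards.

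The stage comparisons were tested with edgeR's quasi-likelihood test, with Benjamini-Hochberg adjustment over all genes tested and a threshold of 0.05. They take the mean of LG and MG, and each pair of comparisons shares the libraries of a stage. In birth against fetus, ACTB fell by 1.49 on the log2 scale (SE 0.11, adjusted p = 1.24e-14), which is 2.81-fold lower. In the same comparison GAPDH rose, with a log2 fold change of 3.90 (SE 0.14, adjusted p = 4.7e-23), which is 15.0-fold higher with a 95% interval of 12.3 to 18.2. So 1 of the 2 genes was called lower and 1 higher, where 44% of the 14820 genes tested were called lower and 37.9% higher. With 81.9% of genes called in 1 direction or the other, passing the test did not set the 2 genes apart. Their sizes did differ, as the absolute log2 change of GAPDH exceeded that of 90.1% of genes and that of ACTB exceeded 57.8%. With libraries scaled to total counts alone these shares were closer, at 79.2% and 70.4%.

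In slaughter against fetus, ACTB had a log2 fold change of -1.65 (SE 0.11, adjusted p = 1.28e-15), or 3.13-fold lower. GAPDH had a log2 fold change of 3.34 (SE 0.13, adjusted p = 3.84e-21), or 10.1-fold higher with a 95% interval of 8.39 to 12.2. Again 1 gene was called lower and 1 higher, in a comparison that called 45% of 14960 genes lower and 38.4% higher, 83.4% in all. Fetal muscle is thus the common side of both large changes, and the same 16 fetal libraries enter both.

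The F1 stages were closer to each other. In slaughter against birth, GAPDH fell by 0.57 on the log2 scale (SE 0.11, adjusted p = 2.7e-05), which is 1.49-fold lower. ACTB had a log2 difference of -0.17 (SE 0.08, 95% interval -0.33 to -0.01), which did not pass the test at an unadjusted p of 0.0430 and an adjusted p of 0.0601. The call for ACTB sits at the threshold. It passed under 6 of 11 other settings and stayed uncalled under 5. Among those that passed were DESeq2 size factors (log2 difference -0.18, adjusted p = 0.0441) and total counts (-0.26, adjusted p = 0.00264). It also passed when any 1 of 16 of the 31 libraries was left out. So 1 of 2 genes was called lower and 0 higher, where 33.3% of 13369 genes were called lower and 37% higher, 70.2% in all.

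The direction of the large changes did not depend on TMM. Scaled to total counts alone, the means of ACTB were 2180, 430 and 357 CPM over fetus, birth and slaughter, and those of GAPDH were 2596, 21177 and 13348 CPM. The median log2 change of all genes was then -1.0 in birth against fetus, against -0.12 with TMM, and -1.15 in slaughter against fetus, against -0.16 with TMM. In birth against fetus it gave 2736 higher and 9330 lower calls, against 5619 higher and 6522 lower with TMM. In slaughter against fetus it gave 3012 higher and 9492 lower calls, against 5747 higher and 6737 lower with TMM. Relative to the median gene, the log2 change of ACTB in birth against fetus was -1.34 with total counts and -1.36 with TMM, and that of GAPDH was 4.03 with each. Rescaling a library moves all its genes alike, so these relative values were bound to be close and say nothing about the choice of scale.

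The ratio of GAPDH reads to ACTB reads needs no scaling of libraries. It is a ratio of reads, not of transcripts, because no gene lengths were used here. In fetuses it lay between 0.925 in MG 23 and 1.66 in LG 41, with a median of 1.17. At birth it lay between 30.5 in MG 17 and 71.9 in LG 07, with a median of 49.6. At slaughter it lay between 25.4 in MG 39 and 59.2 in LG 11, with a median of 40.0. Fetal libraries thus had about as many reads of one gene as of the other, and every F1 library had at least 25.4 GAPDH reads for each ACTB read.

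In birth against fetus the mean log2 ratio differed by 5.38 (SE 0.10), a 41.6-fold higher ratio at birth. In slaughter against fetus it differed by 4.98 (SE 0.11), a 31.5-fold higher ratio at slaughter. Both gave the smallest p that 100000 permutations allow, 2e-05, or 3e-05 after adjustment over the 3 stage comparisons (two-sided permutation tests). In slaughter against birth the log2 ratio differed by -0.40 (SE 0.11, two-sided permutation p = 0.00126, adjusted p = 0.00126), so the ratio at slaughter was 0.757 of that at birth. The F1 ranges overlapped, with 3 of the 15 slaughter libraries below the lowest birth library.

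**Figure D2:**
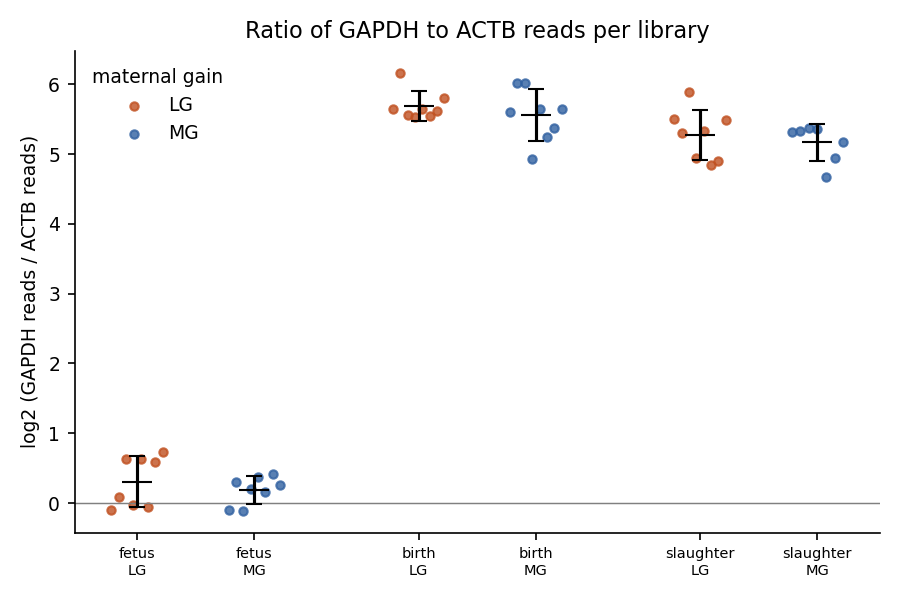
Log2 of the ratio of GAPDH reads to ACTB reads in each library, by stage and maternal gain (LG, MG). Points are libraries, bars are the group mean ± SD, and the grey line marks equal read numbers. Fetal libraries lie between -0.11 and 0.73, and no F1 library lies below 4.67.

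Neither gene passed the test for LG against MG at any stage. In fetuses ACTB had 1160 to 1906 CPM in LG libraries, with a median of 1437 CPM, and 878 to 1983 CPM in MG libraries, with a median of 1466 CPM. The log2 difference, LG minus MG, was 0.07 (SE 0.15, 95% interval -0.25 to 0.39). At birth ACTB had 397 to 642 CPM in LG libraries, with a median of 462 CPM, and 402 to 710 CPM in MG libraries, with a median of 514 CPM. The log2 difference was -0.14 (SE 0.12, 95% interval -0.39 to 0.12). At slaughter ACTB had 367 to 508 CPM in LG libraries, with a median of 443 CPM, and 348 to 535 CPM in MG libraries, with a median of 490 CPM. The log2 difference was -0.09 (SE 0.10, 95% interval -0.30 to 0.12). The LG and MG ranges of ACTB overlapped at each stage.

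GAPDH in fetuses had 1246 to 2945 CPM in LG libraries, with a median of 1767 CPM, and 1078 to 2045 CPM in MG libraries, with a median of 1775 CPM. Its log2 difference was 0.22 (SE 0.18, 95% interval -0.15 to 0.60), and LG 41 was the 1 LG library above all MG libraries. Without LG 41 the log2 difference was 0.062 (SE 0.14, 95% interval -0.23 to 0.36). At birth GAPDH had 19575 to 32311 CPM in LG libraries, with a median of 25903 CPM, and 15759 to 37836 CPM in MG libraries, with a median of 25441 CPM. The log2 difference was -0.03 (SE 0.16, 95% interval -0.35 to 0.30), with the LG range inside the MG range. At slaughter GAPDH had 13360 to 23446 CPM in LG libraries, with a median of 16382 CPM, and 12131 to 21899 CPM in MG libraries, with a median of 15915 CPM. The log2 difference was 0.01 (SE 0.14, 95% interval -0.28 to 0.31).

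Adjusted p in edgeR's quasi-likelihood test was 0.985 or more for both genes at each stage, and 0 of 2 genes were called where 0% of all genes were. edgeR called 0 of 14200 genes in fetuses, 0 of 12485 at birth and 0 of 12577 at slaughter, while 102, 515 and 230 had an unadjusted p under 0.05. DESeq2 and limma voom also called 0 at each stage. An unadjusted p under 0.05 was found for 2794, 659 and 365 genes with limma voom and for 215, 547 and 253 with DESeq2. The methods thus differed most in fetuses. The intervals bound what these libraries could have missed. For ACTB the LG level was between 0.838 and 1.31 of the MG level in fetuses, between 0.761 and 1.08 at birth and between 0.812 and 1.08 at slaughter. For GAPDH it was between 0.903 and 1.51 in fetuses (0.850 and 1.28 without LG 41), between 0.782 and 1.23 at birth and between 0.824 and 1.24 at slaughter.

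The ratio of GAPDH to ACTB reads had a slightly higher mean in LG than in MG at each stage. The log2 difference was 0.12 in fetuses (SE 0.15, exact two-sided permutation p = 0.407), 0.13 at birth (SE 0.15, exact p = 0.42) and 0.11 at slaughter (SE 0.16, exact p = 0.54). Adjusted over the 3 stages each p was 0.54, and the LG and MG ranges overlapped at each stage. The LG minus MG difference was also compared between stages, in 1 model over all 47 libraries. For ACTB it differed by -0.03 on the log2 scale in birth minus slaughter, by -0.13 in slaughter minus fetus and by -0.17 in birth minus fetus. For GAPDH the same differences were -0.03, -0.18 and -0.21. edgeR called 0 of 15264 genes in each of these, which is 0%, while 468, 341 and 449 had an unadjusted p under 0.05, and DESeq2 called 2, 1 and 2.

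Pooled over the groups of stage and gain, both genes varied less than most genes. Among the 15264 genes that passed the filter on low counts, the SD of log2 CPM within groups of stage and gain was 0.26 for ACTB and 0.32 for GAPDH, against a median of 0.41 over all genes. A smaller SD was found in 8.52% of genes for ACTB and in 23% for GAPDH. Low counts add noise to the SD of weakly expressed genes, so the 500 genes nearest in mean level are the closer yardstick. Among these, 11.6% had a smaller SD than ACTB and 33.4% a smaller SD than GAPDH. The nearest 500 reach far below GAPDH, since 6 genes had a higher mean than GAPDH and 110 a higher mean than ACTB.

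By stage, the SD of log2 CPM of ACTB was 0.31 in fetuses, 0.25 at birth and 0.18 at slaughter. For GAPDH it was 0.33, 0.32 and 0.28. The median of the 500 genes nearest in level was 0.47, 0.24 and 0.23 for ACTB and 0.47, 0.24 and 0.23 for GAPDH. In fetuses 12.8% of these had a smaller SD than ACTB and 14.2% a smaller SD than GAPDH, so both were steadier than most of them. At birth 55% had a smaller SD than ACTB and 71% a smaller SD than GAPDH. At slaughter 26.4% had a smaller SD than ACTB and 67.8% a smaller SD than GAPDH. On the TMM scale GAPDH thus varied more than most of its nearest 500 genes at birth and at slaughter. ACTB varied more than most of its own nearest 500 at birth by a small margin and not at slaughter. The 500 genes of GAPDH run down to a mean log2 CPM of 7.54, against 13.1 for GAPDH, so they are not matched to it in level. Against all 15264 genes, a smaller SD than that of GAPDH was found in 16.2% in fetuses, 53.0% at birth and 45.3% at slaughter, and a smaller SD than that of ACTB in 13.2%, 33.2% and 15.2%. With total counts, 39.6% of the nearest 500 had a smaller SD than GAPDH at birth and 51.2% at slaughter. For ACTB these shares were 52.2% and 53.8%, so the contrast after birth did not hold on that scale.

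Over all 47 libraries GAPDH was among the more variable genes on the TMM scale, and ACTB was near the middle. The SD of log2 CPM was 0.81 for ACTB, where 57.0% of all genes and 40.8% of the 500 nearest in level had a smaller SD. It was 1.76 for GAPDH, where 93.8% of all genes and 84.4% of the nearest did. With total counts these shares were 77.0% and 73% for ACTB and 82.4% and 79% for GAPDH, so the 2 genes stood closer together. The median SD with TMM was 0.73 over all genes, 0.91 over those nearest to ACTB and 0.94 over those nearest to GAPDH. The highest and lowest stage means lay 1.68 apart on the log2 scale for ACTB (3.21-fold) and 3.88 apart for GAPDH (14.7-fold), against 1.32 for the median gene. Differences between stages made up 90.3% of the variance of ACTB and 97.0% of that of GAPDH. Neither gene therefore held 1 level across the 3 stages, and GAPDH stood among the more stage-dependent genes of this muscle.

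**Figure D3:**
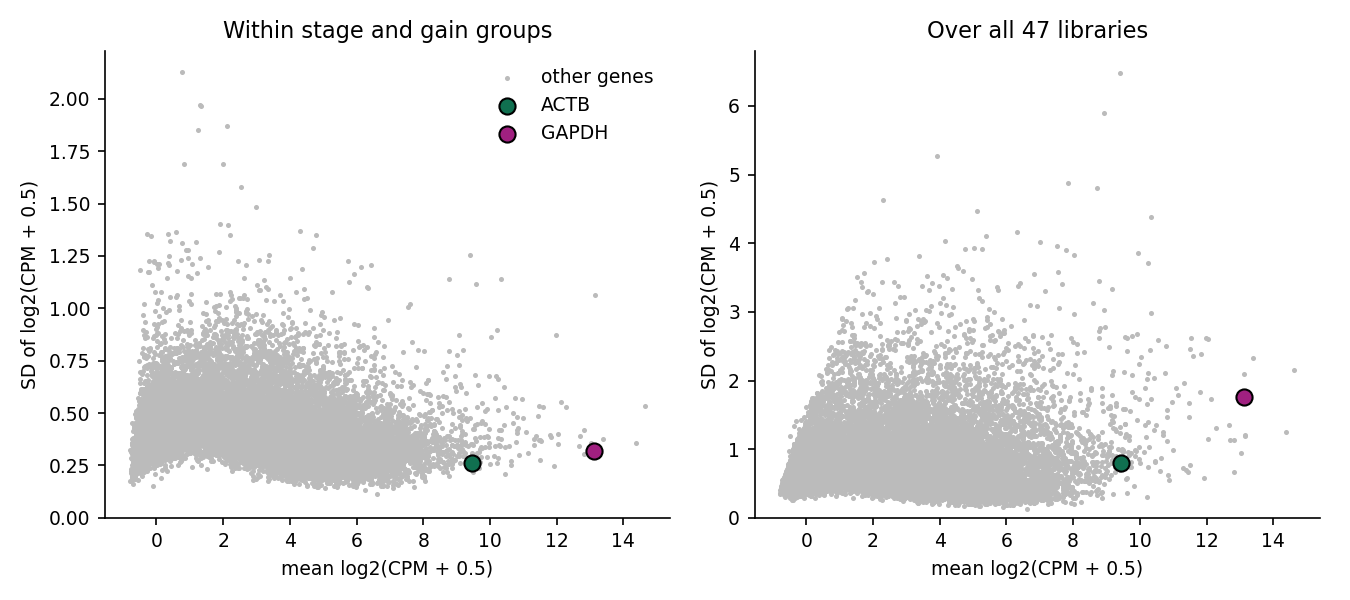
SD of log2(CPM + 0.5) against the mean for 15264 genes, within groups of stage and gain (left) and over all 47 libraries (right). Grey points are other genes, and ACTB and GAPDH are marked. Within groups both lie low, at 0.26 and 0.32, while over all libraries ACTB lies at 0.81 and GAPDH at 1.76.

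By Pearson's r, ACTB and GAPDH deviated together in fetuses with TMM and with DESeq2 size factors, but not with total counts. Pearson's r between their log2 CPM was 0.59 over 16 fetal libraries (permutation p = 0.0154, adjusted p = 0.0462 over 3 stages) and Spearman's rho was 0.54 (permutation p = 0.0316, adjusted p = 0.0943). Without MG 20 and MG 15, the libraries farthest from the median of ACTB, r was 0.42, and it was 0.33 within LG and 0.85 within MG. MG 20 was the lowest fetal library for both genes and had the highest TMM factor of all libraries, 1.93. In place of TMM, DESeq2 size factors gave r = 0.66 in fetuses (permutation, adjusted p = 0.0144) and total counts gave -0.08 (permutation, adjusted p = 0.961). The part of the scaling in this relation was not tested.

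At birth r was 0.46 (permutation p = 0.0738, adjusted p = 0.111) and rho was 0.48 (permutation p = 0.0629, adjusted p = 0.0943). Without MG 21 and LG 22 r was 0.45. Over subsets and scalings r was 0.68 within LG, 0.34 within MG, 0.46 with DESeq2 size factors and 0.01 with total counts. At slaughter r was 0.16 (permutation p = 0.573, adjusted p = 0.573) and rho was 0.16 (permutation p = 0.559, adjusted p = 0.559). Without MG 31 and LG 22 r was -0.09. Over subsets and scalings r was -0.24 within LG, 0.51 within MG, 0.089 with DESeq2 size factors and -0.31 with total counts. Neither F1 stage passed the threshold. In fetuses Pearson's r passed it on 2 of the 3 scalings, while Spearman's rho with TMM did not. Whether the relation differed between stages was not tested.

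Several extreme values of GAPDH went with an extreme TMM factor of their library. CPM is divided by this factor, so value and factor are not independent. The highest fetal value, in LG 41, went with the lowest fetal TMM factor, 1.19. The lowest birth value, in MG 17, went with the highest birth TMM factor, 1.08, and with the lowest birth share of counts in the 10 most abundant genes, 17.3%. The lowest slaughter value, in MG 39, went with the highest slaughter TMM factor, 0.938, and with the lowest slaughter share, 22.1%. GAPDH is itself among those 10 genes in every F1 library. With total counts LG 41 was again the highest fetal library, at 3500 CPM. The lowest birth and slaughter libraries were then LG 25 (16645 CPM) and LG 14 (11350 CPM), with MG 17 at 17056 CPM and MG 39 at 11379 CPM. The highest TMM-scaled values at birth (MG 13, factor 0.747) and slaughter (LG 11, factor 0.734) did not have the lowest factor of their stage. The part of the factors in these values was not tested.

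Since the genes moved in opposite directions, their geometric mean moved less than GAPDH. On the TMM scale it was 1603 ± 308 CPM in fetuses (SD, n = 16), 3631 ± 616 CPM at birth (SD, n = 16) and 2768 ± 347 CPM at slaughter (SD, n = 15). The highest and lowest stage means on the log2 scale were 2.28-fold apart. On total counts it was 2368 ± 213 CPM in fetuses, 3002 ± 311 CPM at birth and 2171 ± 171 CPM at slaughter, with stage means 1.38-fold apart. Its SD over all 47 libraries was 0.56 with TMM, where 29.5% of genes had a smaller SD, and 0.24 with total counts, where 0.400% of genes did. Slaughter stood above fetus with TMM and below it with total counts, so the pair gave no direction between these stages that held on both scales.

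**Figure D4:**
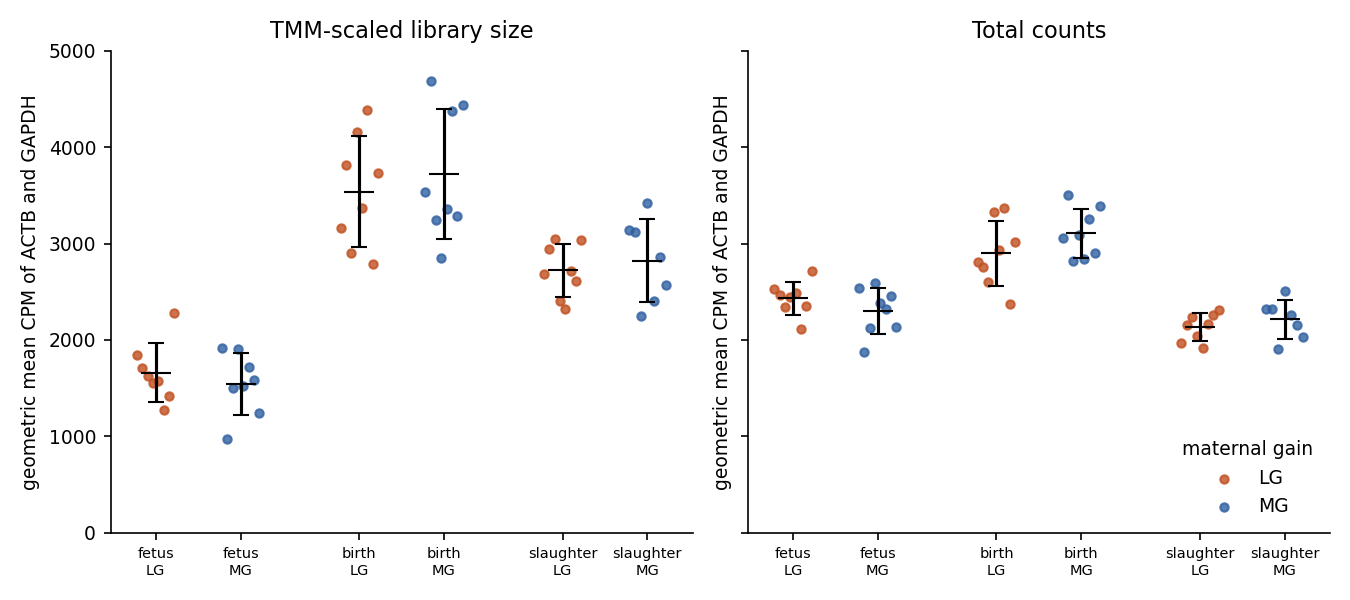
Geometric mean CPM of ACTB and GAPDH per library on TMM-scaled library sizes (left) and on total counts (right), by stage and maternal gain (LG, MG). Points are libraries and bars are the group mean ± SD. With TMM the stage means are 1603, 3631 and 2768 CPM over fetus, birth and slaughter, and with total counts they are 2368, 3002 and 2171 CPM.

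To express these changes as calls of other genes, the stage comparisons were repeated with each library scaled to ACTB, to GAPDH or to the geometric mean of both. Such scaling shifts all genes by the reference's own change, so the counts restate the changes given above and are no further evidence for them. In birth against fetus the median shift against TMM was 1.45 with ACTB, -3.90 with GAPDH and -1.21 with both, on the log2 scale. In birth against fetus, scaling to ACTB gave 10042 higher and 2942 lower calls among the other genes, where TMM gave 5618 higher and 6521 lower. Scaling to GAPDH gave 269 higher and 14222 lower calls, and scaling to both gave 1937 higher and 10313 lower. With ACTB, 1877 genes called lower under TMM were called higher. With GAPDH, 5022 genes called higher under TMM were called lower, and with both genes 1310 were. The median log2 change of all genes was 1.33 with ACTB, -4.03 with GAPDH and -1.35 with both, against -0.12 with TMM.

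In slaughter against fetus the median shift was 1.59 with ACTB, -3.35 with GAPDH and -0.87 with both. Scaling to ACTB gave 10336 higher and 2815 lower calls, with 2212 genes turned from lower to higher against TMM. Scaling to GAPDH gave 510 higher and 13757 lower calls, with 4546 turned from higher to lower, and scaling to both gave 3127 higher and 9168 lower, with 476 so turned. TMM gave 5746 higher and 6736 lower.

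In slaughter against birth the median shift was 0.15 with ACTB, 0.56 with GAPDH and 0.35 with both, as both genes changed less there. Scaling to ACTB gave 5581 higher and 3138 lower calls, where TMM gave 4944 higher and 4445 lower, and 0 genes changed direction between calls. Scaling to GAPDH gave 8274 higher and 1454 lower calls, with 409 genes turned from lower to higher. Scaling to both gave 7141 higher and 2236 lower, with 37 so turned. In LG against MG within each stage, every one of these scalings called 0 genes by edgeR, while 107 to 482 had an unadjusted p under 0.05.

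**Figure D5:**
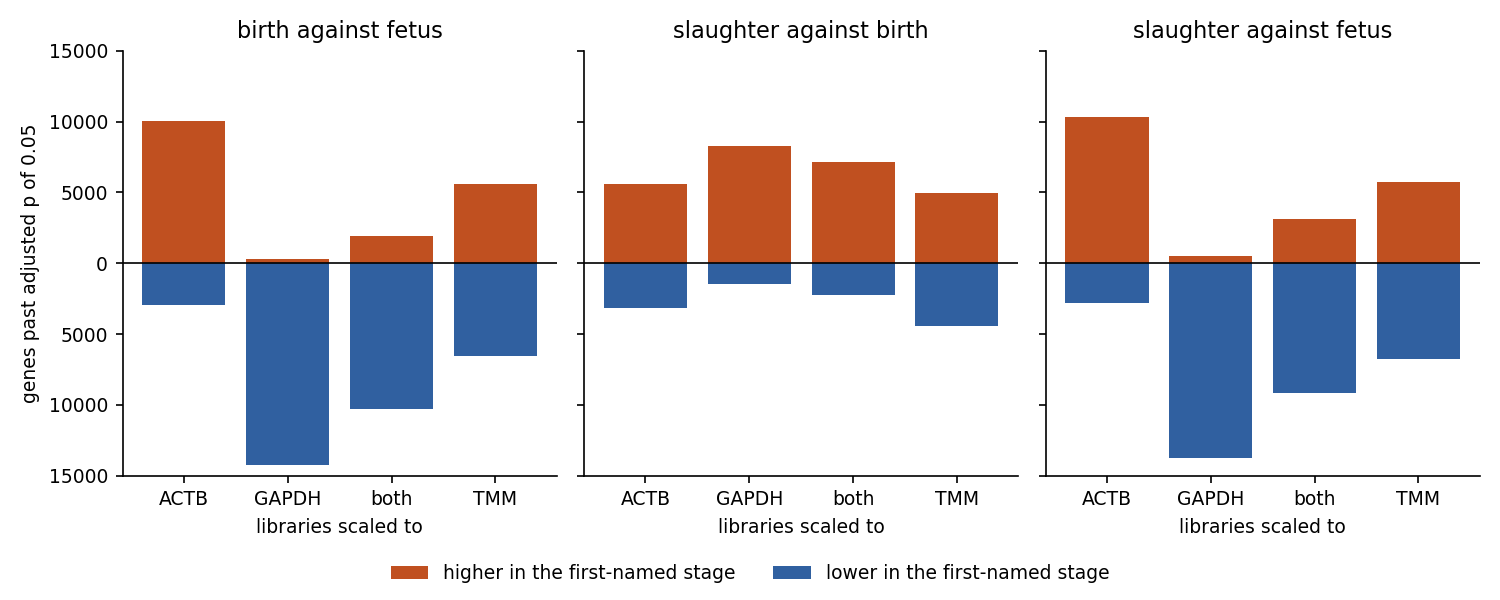
Genes past an adjusted p of 0.05 that were higher (above 0) or lower (below 0) in the first-named stage, with libraries scaled to ACTB, to GAPDH, to the geometric mean of both or by TMM. In birth against fetus, ACTB gives 10042 higher and GAPDH 14222 lower, while in slaughter against birth ACTB gives 5581 higher and 3138 lower, against 4944 higher and 4445 lower with TMM. The shifts follow from the reference's own change.

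Scaling to ACTB, to GAPDH or to both also widened the spread within groups. Such scaling passes the reference's own variation to each gene, while TMM brings the bulk of genes together. A spread wider than with TMM was thus largely built in. The median SD of log2 counts within LG and MG groups, over 15262 other genes, was 0.67 in fetuses with ACTB and 0.70 with GAPDH, against 0.61 with TMM. At birth it was 0.46 with ACTB and 0.52 with GAPDH, against 0.39 with TMM. At slaughter it was 0.43 with ACTB and 0.49 with GAPDH, against 0.39 with TMM. With the geometric mean of both it was 0.67 in fetuses, 0.47 at birth and 0.43 at slaughter, about as wide as with ACTB. With total counts it was 0.621, 0.415 and 0.406, also wider than with TMM. Counting error was small beside the spread within groups. The lowest count of ACTB was 4727, in slaughter MG 31, with a 95% Poisson interval of 4593 to 4864. The lowest count of GAPDH was 32662, in fetal MG 20, with an interval of 32309 to 33018, and these intervals cover counting error only.

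The identifiers most like each gene over the 47 libraries followed the same stages. For ACTB the highest Pearson's r of log2 CPM was 0.985, with ENSBTAG00000006189, which had 1175 ± 173, 309 ± 72.0 and 295 ± 50.8 CPM over fetus, birth and slaughter. For GAPDH it was 0.996, with ENSBTAG00000013921, which had 1301 ± 336, 30350 ± 5829 and 20500 ± 3581 CPM. Next came ENSBTAG00000019604 for ACTB, with an r of 0.976, and ENSBTAG00000008314 for GAPDH, with an r of 0.994. The libraries share their stage, and 221 genes reached an r above 0.95 with ACTB and 255 with GAPDH, so these values describe a pattern many genes have.

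Other identifiers were steadier than either gene. Of the 500 nearest in level to ACTB, ENSBTAG00000020757 had the smallest SD over all 47 libraries, 0.20, with 246 ± 38.2 CPM in fetuses, 280 ± 21 CPM at birth and 260 ± 33.4 CPM at slaughter. The next was ENSBTAG00000001035, with an SD of 0.22 and 232 ± 37.7, 273 ± 29.3 and 243 ± 27.3 CPM. Their stage means were 1.15-fold and 1.19-fold apart, where those of ACTB were 3.21-fold apart. They were picked as the steadiest on the TMM scale, and with total counts their SD was 0.39 and 0.41. Among the 110 genes with a higher mean than ACTB, 18 had a smaller SD over all libraries.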

How the data were processed

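The values analysed are whole-number read counts for each gene, which the authors deposited as 3 tables, 1 for each stage. Per the labels' protocols, the libraries were polyA-selected and were read in pairs of 150 bp. The kit does not mark strand, so where opposite-strand genes overlap, their reads cannot be told apart, and reads shared with near-identical copies are uncertain. The submitters' processing notes list STAR 2.7.3a, FastQC 0.11.8, edgeR 3.24.3 and MultiQC 1.9. Neither the genome build nor the annotation is given in the sources used here, and the same holds for the program that counted reads. In the slaughter table, whose header lacks a name for the identifiers, the first name was read as that of the first value column.

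Treatment and timepoint labels gave the groups. Genes kept by filterByExpr were scaled by TMM and tested over the whole table with the robust quasi-likelihood test of edgeR 4.0.16 (R 4.3.3). Scaling was also done with DESeq2 size factors and total counts, testing with DESeq2 1.42.0 and with voom of limma 3.58.1 (sample weights), and filtering with none and with 1 CPM in all libraries of a group, and libraries were left out. edgeR was also run on simulated data for LG against MG at birth, slaughter against birth and the LG minus MG difference between those stages. No fetal library entered the simulation, and its outcome is not given here. Log2 CPM adds 0.5 to CPM. Ratios were tested by permutation of libraries (Python 3.11.15, scipy 1.17.1).

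The genes, lists and tests were chosen with earlier results of these data known. Identifiers were named as the 2 most alike by Pearson's r among genes averaging 3 or more in log2 CPM, and as the 2 steadiest of the 500 nearest in mean level, which were the same 2 for both genes. Lists of other reference genes, glycolysis, actins and cell types could not be run, since no symbols were paired with identifiers. Whether each library is a separate animal is not stated, so p-values measure the spread between libraries. Library numbers shared between stages were not taken to pair libraries.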

Additional observations from a re-analysis of the deposited data

Results flagged for a closer look

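Of 18 groups of libraries examined, over the levels of both genes and their ratio, 2 held a library far from the rest, where chance gives about 1 in 20. GAPDH in fetal LG 41 had 2945 CPM, and the nearest of the other 7 LG fetuses had 2025 CPM, a gap of 0.541 of the group's range. The log2 ratio of GAPDH to ACTB reads in birth LG 07 was 6.17, and the nearest of the other LG newborns had 5.80, a gap of 0.582 of the range. Without LG 41 the LG minus MG log2 difference of GAPDH in fetuses was 0.062, against 0.22 with it, and without any 1 other fetal library it lay between 0.17 and 0.29. At birth, the LG minus MG difference of the log2 ratio was 0.13 with all libraries. It lay between 0.04 and 0.20 when any 1 birth library, LG 07 among them, was left out.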

How the results depend on the processing

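The calls of ACTB and GAPDH in birth against fetus and slaughter against fetus held under all 11 other settings. ACTB lay between -2.35 and -1.45 and between -2.61 and -1.62, and GAPDH between 3.03 and 3.98 and between 2.36 and 3.39. For slaughter against birth, GAPDH stayed called, between -0.67 and -0.53. ACTB passed the threshold with DESeq2 size factors (-0.18, adjusted p = 0.0441), total counts (-0.26, adjusted p = 0.00264), DESeq2 (-0.18, adjusted p = 0.0361), and, chosen after seeing the data, without birth MG 17 and slaughter MG 47 (-0.19, adjusted p = 0.0463). Of the 11 other settings 6 passed, counting the fits over shared numbers given below, and 5 stayed uncalled. Leaving out 1 library at a time, also chosen after seeing the data, gave -0.21 to -0.13 (adjusted p = 0.0210 to 0.117). ACTB passed without birth LG 07, 10, 25 or 28, birth MG 15, 17, 20 or 37, slaughter LG 07, 11, 29 or 41, or slaughter MG 20, 23, 32 or 39. Why the call moved was not tested.

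Library numbers were not taken to pair the libraries, as the labels do not say that a number marks 1 animal. Not every same-numbered pair correlated above 0.1, but a low correlation cannot show that libraries come from unlinked animals. The correlations were -0.32 to 0.15 for birth with fetus, 0.02 to 0.33 for slaughter with birth and -0.38 to 0.38 for slaughter with fetus. For slaughter with birth all 6 were above 0, 1 was above 0.1 and 3 libraries correlated best with their own number. Each number shared between stages also carried the same treatment label at both. There were 7 such numbers for birth with fetus, 6 for slaughter with birth and 15, all of the slaughter libraries, for slaughter with fetus. These are hints of linked animals, which the labels do not state. Over the 6 numbers shared by slaughter and birth, ACTB had -0.36 with a replicate block (adjusted p = 0.0489) and -0.36 without it (adjusted p = 0.0249). The ratio difference was -0.29 with the replicate block (exact sign-flip test, adjusted p = 0.219), no longer called. Other calls of both genes held under the block.

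No LG against MG value of either gene passed the threshold under any setting, and several near 0 changed sign. With limma voom, ACTB in fetuses was -0.040, and the differences between stages were 0.021, 0.013 and 0.034 for ACTB (birth minus slaughter, slaughter minus fetus, birth minus fetus) and 0.062 for GAPDH (slaughter minus fetus). With 1 library left out, ACTB in fetuses ran from -0.0083 (without LG 41) to 0.10. GAPDH ran from -0.10 to 0.064 at birth (above 0 without LG 10, LG 25, MG 13 or MG 37) and from -0.058 to 0.077 at slaughter (below 0 without LG 11, LG 41, MG 31, MG 39, MG 45 or MG 47). DESeq2 called 2, 1 and 2 genes between stages. With total counts, r was -0.077 in fetuses and -0.31 at slaughter, the SD over all libraries was 1.21 for ACTB and 1.34 for GAPDH, and the stage means lay 2.61 and 3.03 apart on the log2 scale. The causes were not tested. The lowest count of either gene in a library was 4727.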
